A study of Mus musculus with 10 samples.

Results

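Lactylation of lysine 18 (H3K18La) and acetylation of lysine 27 (H3K27Ac) on histone H3 were compared in mouse retinas kept in high glucose. The comparison took the 5 libraries at 25 mM glucose, 3 for H3K18La and 2 for H3K27Ac, of 10 libraries in the series. All retinas came from wild-type C57BL/6J mice at postnatal day 28, were freed of sclera and retinal pigment epithelium, and were cultured as explants for 48 hours before dissociation. CUT&Tag was run on 500000 cells per assay, with an antibody that directs a transposase to the modified histone, and the labels give 1 batch number to every library. The protocol text of the labels names an MNase fusion and an H3K9me3 antibody where the study's methods name a Tn5 fusion and H3K27Ac, and the marks are given here as the sample titles give them. The study's methods call the CUT&Tag replicates biological, but neither they nor the labels say whether each came from separate animals. The p-values therefore measure the spread between these libraries, which may be technical.

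Both modifications add an acyl group to a lysine of the histone H3 tail. Acetylation of lysine 27 is laid down by the acetyltransferases p300 and CBP and is the usual mark of active promoters and enhancers. Lactylation takes its acyl group from lactate, the end product of the aerobic glycolysis for which photoreceptors are known, and it too has been mapped to promoters and enhancers of active genes. Explants hold all retinal cell types together, so a higher mark per cell and more cells carrying it cannot be told apart.

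The values covered 108253 peaks with a median width of 757 bp, which make up 3.64% of the genome. The 25 mM libraries held 687411, 1285086 and 924620 reads in peaks for H3K18La replicates 1 to 3, and 4996636 and 4192407 reads for H3K27Ac replicates 1 and 2. Reads in peaks were 31.2% to 34.97% of the RPKM denominator for H3K18La and 56.5% and 69.5% for H3K27Ac, and whether that denominator includes a normalization factor of the authors is not given in the sources used here. The median peak therefore rested on 3 to 5 H3K18La reads and 11 H3K27Ac reads. Values were divided by each library's total in peaks, so every comparison concerns how a mark is distributed and not how much of it there is. A peak's value is given as reads per kb and per 1000000 in-peak reads, and a locus value as the number of every 1000000 in-peak reads (in-peak RPM) that fell in all peaks assigned to that gene. The peak set had been merged by the authors from H3K18La profiles of the developing retina, so sites that carry H3K27Ac alone were not measured. Every replicate pair differed by more than counting noise (chi-square per degree of freedom 1.14 to 2.87). Replicate 1 of H3K18La had the fewest reads of the 5, and its promoter share was the nearest to that of H3K27Ac.

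The first question was which annotation classes carry relatively more of each mark. Promoters held a larger share of H3K27Ac, while intergenic peaks and introns after the first held a larger share of H3K18La. Promoter peaks, from 1000 bp upstream to 500 bp downstream of a start site, took 23.2%, 18.9% and 18.02% of in-peak reads in the H3K18La libraries. In the H3K27Ac libraries they took 41.5% and 35.1%. The marks did not overlap, and the counting error was small beside the gap (95% Wilson intervals of 23.1% to 23.3% for H3K18La replicate 1 and 35.04% to 35.13% for H3K27Ac replicate 2). The means were 20.04% ± 2.77 (SD, n = 3) and 38.3% ± 4.53 (SD, n = 2), and the ratio of H3K27Ac to H3K18La was 1.91. Promoters make up 21.3% of the peak length, so H3K18La reads were spread over them about as over the rest of the set (0.940 times their share of length) and H3K27Ac reads were gathered on them (1.79 times).

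Intergenic peaks held 25.0%, 27.1% and 27.6% of H3K18La reads and 14.4% and 15.4% of H3K27Ac reads. Introns after the first held 24.8%, 26.5% and 26.96% of H3K18La reads against 18.8% and 21.4%. Both classes were higher in every H3K18La library than in either H3K27Ac library. First introns did not separate the marks, at 17.4% to 17.8% for H3K18La and 16.0% and 17.9% for H3K27Ac. The small 5′ UTR and 3′ UTR classes were higher in H3K27Ac, with means of 0.898% against 0.664% and 3.099% against 2.68%. Exons were slightly higher in H3K18La, with means of 6.15% ± 0.0959 (SD, n = 3) and 5.67% ± 0.379 (SD, n = 2). By distance, peaks within 500 bp of a start site held 19.6% ± 2.76 (SD, n = 3) of H3K18La reads and 37.9% ± 4.52 (SD, n = 2) of H3K27Ac reads. Peaks more than 100 kb away held 18.4% ± 1.12 (SD, n = 3) and 11.5% ± 1.03 (SD, n = 2). Among the 16 shares compared, 13 did not overlap between the marks, and each of these had an exact two-sided permutation p of 0.1, the smallest that 3 against 2 libraries allow (0.123 after Benjamini-Hochberg adjustment over the 16). No share could pass a threshold of 0.05 in this design.

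**Figure D1:**
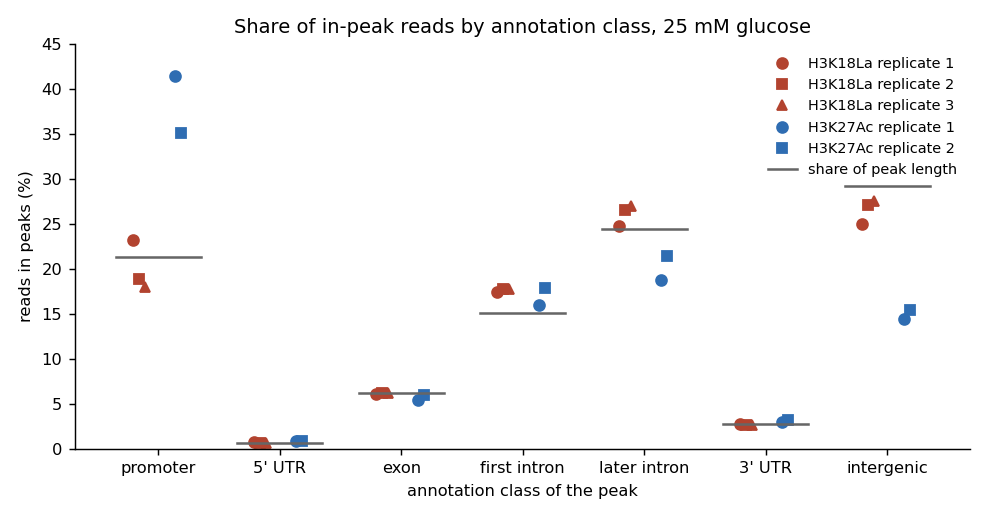
Share of in-peak reads (vertical axis, %) in 7 annotation classes for each library at 25 mM glucose, with H3K18La in red and H3K27Ac in blue, and grey bars for the class's share of peak length; the downstream class, under 0.2% in every library, is left out. Promoters lie at 18.02% to 23.2% for H3K18La and at 35.1% and 41.5% for H3K27Ac, and intergenic peaks at 25.0% to 27.6% and at 14.4% and 15.4%.

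Coding transcripts accounted for most of the promoter gap. Their promoters held 12.5% ± 2.25 (SD, n = 3) of H3K18La reads and 27.6% ± 3.80 (SD, n = 2) of H3K27Ac reads, which made H3K27Ac 2.21 times H3K18La. Promoters of non-coding transcripts held 7.58% ± 0.522 (SD, n = 3) and 10.7% ± 0.724 (SD, n = 2), or 1.41 times. The promoter contrast, which is the mean log2 value of promoter peaks minus that of other peaks within a library, was -0.27, -0.67 and -0.76 for H3K18La and 1.12 and 0.74 for H3K27Ac. It was below 0 in every H3K18La library and above 0 in both H3K27Ac libraries. The means differed by -1.49 on the log2 scale, H3K18La minus H3K27Ac (exact two-sided permutation p = 0.1).

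Single peaks were then tested with limma on log2(value + 1), which understates the change of weak peaks, and every difference below is coded H3K18La minus H3K27Ac. Of 51415 peaks with a mean value of at least 5 over the 5 libraries, 12321 were higher in H3K18La (24.0% of those tested) and 9526 were higher in H3K27Ac (18.5%) at an adjusted p under 0.05. A peak or locus could reach that minimum through 1 mark alone, so these counts do not describe all peaks. Of 12151 promoter peaks tested, 6604 were higher in H3K27Ac and 704 in H3K18La, with a median log2 difference of -1.22. Of 12028 intergenic peaks, 5587 were higher in H3K18La and 324 in H3K27Ac, with a median of 1.09. Later introns gave 3532 and 795 of 13277 (median 0.45), and first introns gave 1642 and 986 of 9289 (median 0.09). With the RPKM values as deposited, without scaling to reads in peaks, the split was 3457 higher in H3K18La and 21049 in H3K27Ac, and the median difference over the peaks tested fell by 0.77 on the log2 scale. Without H3K27Ac replicate 1 the count of called peaks was 4436 and without H3K27Ac replicate 2 it was 10910. Libraries thinned to the same 687411 reads in peaks gave 11888.

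The class of the transcript mattered among promoters as well. For the strongest promoter peak of each gene, 6070 of 10596 were higher in H3K27Ac (57.3%) and 599 in H3K18La (5.65%). Promoters of protein-coding transcripts were higher in H3K27Ac in 4865 of 7521 cases and in H3K18La in 189, with a median log2 difference of -1.47. Promoters of lincRNAs, long non-coding RNAs between genes, went mostly the other way, with 166 of 557 higher in H3K18La and 85 in H3K27Ac (median 0.53). Those of processed pseudogenes were higher in H3K18La in 48 of 137 cases and in H3K27Ac in 10 (median 0.79). These promoters were also poorer in G and C, with a median GC content of 51.8% for lincRNAs and 48.7% for processed pseudogenes against 59.6% for protein-coding transcripts, and the part of base composition in the difference was not tested.

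The 12 promoters with the largest differences, 6 in each direction, were chosen for their size, and all but n-R5s193 reached the minimum of 10 through 1 mark alone, so their values are a description. The Rnf121 promoter (chr7:102065110-102065499, GRCm38), a ubiquitin ligase gene, read 3.73, 2.00 and 2.77 in the H3K18La libraries and 79.0 and 68.5 in the H3K27Ac libraries. Its log2 difference was -4.31 ± 0.33 (SE). The promoter of Dot1l, the H3K79 methyltransferase, read 0, 2.69 and 3.74 for H3K18La and 42.2 and 51.2 for H3K27Ac. Eif3d, a subunit of a translation initiation factor, read 2.87, 1.54 and 0 against 41.7 and 20.3 at its promoter. Such values rest on at most a few H3K18La reads per library. In the opposite direction, the promoter of Pigr (chr1:130826571-130827145), the receptor that carries immunoglobulin across epithelia, read 27.8, 27.1 and 28.2 for H3K18La and 5.22 and 3.73 for H3K27Ac (log2 difference 2.40 ± 0.29). That of Bpifb6 (chr2:153899174-153900775), a member of a lipid-binding secreted protein family, read 24.5, 27.2 and 32.4 against 2.87 and 5.51. Vmn1r222, a vomeronasal receptor, Kcnj1, a potassium channel, Thsd4 and n-R5s193, a 5S ribosomal RNA copy, completed the 6 largest promoters on this side, at log2 differences of 2.31 to 2.53. The n-R5s193 and Vmn1r222 genes have near-identical copies, so their reads may be split or shared between copies. Snapc4, Tbce and Mrpl20 completed the opposite side, at -3.84 to -4.02.

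The bases upstream of 3 of these start sites are shown to set a promoter rich in H3K18La beside one rich in H3K27Ac. They are the 250 bases before the RefSeq start, on GRCm38.p6, written in the direction of transcription, and capitals mark GGGCGG or CCGCCC (the core of a GC box, bound by SP and KLF factors) and TAATCC or GGATTA (a site of the photoreceptor factors CRX and OTX2).
Bpifb6 promoter, chr2:153900138-153900387, plus strand: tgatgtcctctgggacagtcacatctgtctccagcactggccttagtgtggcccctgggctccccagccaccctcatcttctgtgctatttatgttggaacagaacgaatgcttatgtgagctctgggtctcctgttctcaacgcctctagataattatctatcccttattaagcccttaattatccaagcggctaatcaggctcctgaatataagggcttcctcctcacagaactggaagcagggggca
Pigr promoter, chr1:130826434-130826683, plus strand: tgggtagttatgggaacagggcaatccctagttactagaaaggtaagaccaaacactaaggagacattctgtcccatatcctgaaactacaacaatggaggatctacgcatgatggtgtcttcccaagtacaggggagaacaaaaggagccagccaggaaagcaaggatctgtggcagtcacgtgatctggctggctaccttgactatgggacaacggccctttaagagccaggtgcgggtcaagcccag
Eif3d promoter, chr15:77970825-77971074, minus strand: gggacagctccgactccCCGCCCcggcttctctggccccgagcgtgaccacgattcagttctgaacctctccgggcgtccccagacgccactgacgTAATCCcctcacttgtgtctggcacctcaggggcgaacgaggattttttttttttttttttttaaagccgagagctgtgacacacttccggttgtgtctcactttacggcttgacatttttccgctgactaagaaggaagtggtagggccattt

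The Bpifb6 and Pigr stretches held 3 and 4 CpG dinucleotides and no GC box. The Eif3d stretch held 16 CpG, 1 GC box and 1 TAATCC. Over all promoter peaks the same contrast appeared. Promoters higher in H3K27Ac had a median of 6.28 CpG per 100 bp and 60.1% of them held a GC box in their central 300 bp, where 50.8% of tested and 44.8% of all promoter peaks did. Promoters higher in H3K18La had a median of 1.47 CpG per 100 bp and 14.3% held a GC box. The homeodomain letters were found in 13.2% of promoters higher in H3K18La, in 5.92% of those higher in H3K27Ac, in 7.09% of those tested and in 6.95% of all. A match of letters is no evidence that a factor was bound.

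Base composition separated the marks mainly through promoters. Across all 51415 peaks, the Spearman coefficient between value and GC content was -0.06, -0.25 and -0.25 in the H3K18La libraries and 0.27 and 0.15 in the H3K27Ac libraries. The means differed by -0.40 (exact two-sided permutation p = 0.1, 0.15 after adjustment over 3 such comparisons). Within peaks outside promoters the coefficients ran from -0.07 to 0.03 for H3K18La and were 0.05 and -0.01 for H3K27Ac, so that the marks overlapped. Promoters of 45% to 50% GC had a median log2 difference of -0.16 (n = 1122) and those of 60% to 65% GC had -1.46 (n = 3051). Peaks outside promoters had medians between 0.29 and 0.61 up to 60% GC, and -0.28 (n = 425) at 60% to 65%.

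**Figure D2:**
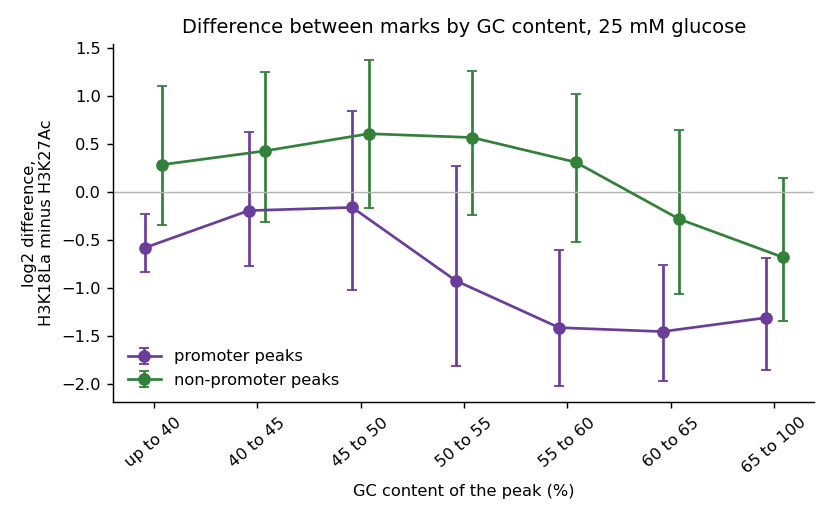
Median log2 difference of tested peaks, H3K18La minus H3K27Ac (vertical axis), by GC content of the peak (horizontal axis, %), for promoter peaks (purple) and other peaks (green) at 25 mM glucose; bars span the 25th to 75th percentile of peaks. Promoters fall from -0.16 at 45% to 50% GC to -1.46 at 60% to 65%, and other peaks stay above 0 up to 60% GC.

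Outside promoters, the peaks with the largest differences lay in intergenic sequence for H3K18La. Their central 300 bases are shown on the plus strand of GRCm38, with the same letters in capitals, to show that neither a GC box nor CpG-rich sequence is common to them.
Lurap1l intergenic peak, chr4:80891876-80892175, plus strand: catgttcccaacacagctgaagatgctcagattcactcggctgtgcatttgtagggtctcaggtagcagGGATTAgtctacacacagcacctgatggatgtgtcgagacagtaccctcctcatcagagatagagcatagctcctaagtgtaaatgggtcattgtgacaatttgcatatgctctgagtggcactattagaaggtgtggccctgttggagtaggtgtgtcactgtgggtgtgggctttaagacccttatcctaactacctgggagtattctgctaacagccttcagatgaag
Gm23642 intergenic peak, chr17:48695868-48696167, plus strand: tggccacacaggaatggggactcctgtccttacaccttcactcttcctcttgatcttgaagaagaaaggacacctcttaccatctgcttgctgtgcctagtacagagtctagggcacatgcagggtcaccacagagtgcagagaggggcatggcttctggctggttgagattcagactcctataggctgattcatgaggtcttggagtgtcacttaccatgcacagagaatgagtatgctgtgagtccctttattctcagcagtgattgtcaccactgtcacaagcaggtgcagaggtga
En2 intergenic peak, chr5:28143054-28143353, plus strand: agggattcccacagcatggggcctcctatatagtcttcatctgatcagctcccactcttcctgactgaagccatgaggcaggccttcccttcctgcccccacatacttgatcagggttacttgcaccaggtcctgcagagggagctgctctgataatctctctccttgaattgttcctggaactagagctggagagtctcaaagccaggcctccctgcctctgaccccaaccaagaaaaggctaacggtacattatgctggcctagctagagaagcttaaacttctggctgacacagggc

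The Lurap1l peak, 18483 bp upstream of the gene, read 42.2, 39.5 and 43.1 for H3K18La and 4.35 and 1.73 for H3K27Ac (log2 difference 3.48 ± 0.34, adjusted p = 0.00229). The Gm23642 peak, 3026 bp upstream of a small RNA gene, read 48.5, 77.8 and 85.4 against 4.92 and 6.28 (3.41 ± 0.30). The En2 peak, 22330 bp upstream of a homeobox gene of the midbrain and hindbrain, read 31.5, 50.6 and 43.5 against 1.24 and 6.65 (3.35 ± 0.49). These peaks were chosen as the largest differences and reached the minimum of 20 through H3K18La alone, so the choice fixed that the marks lie apart at them. The 3 windows held 2, 0 and 1 CpG.

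On the H3K27Ac side the largest non-promoter peaks lay near or inside genes, and their sequences are shown beside those above.
Armc9 first intron peak, chr1:86156382-86156681, plus strand: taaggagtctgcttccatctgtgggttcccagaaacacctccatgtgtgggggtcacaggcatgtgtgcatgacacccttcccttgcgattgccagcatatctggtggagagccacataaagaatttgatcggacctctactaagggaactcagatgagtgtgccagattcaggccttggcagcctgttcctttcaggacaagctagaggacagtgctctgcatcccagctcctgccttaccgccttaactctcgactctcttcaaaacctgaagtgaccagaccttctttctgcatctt
Rabepk intergenic peak, chr2:34802124-34802423, plus strand: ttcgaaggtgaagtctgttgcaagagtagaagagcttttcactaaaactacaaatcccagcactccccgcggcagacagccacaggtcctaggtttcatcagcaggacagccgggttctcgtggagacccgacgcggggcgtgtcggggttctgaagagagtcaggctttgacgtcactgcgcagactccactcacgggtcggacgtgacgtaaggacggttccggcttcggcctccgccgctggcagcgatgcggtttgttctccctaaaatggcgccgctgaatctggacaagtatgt
Mtf1 later intron peak, chr4:124817864-124818163, plus strand: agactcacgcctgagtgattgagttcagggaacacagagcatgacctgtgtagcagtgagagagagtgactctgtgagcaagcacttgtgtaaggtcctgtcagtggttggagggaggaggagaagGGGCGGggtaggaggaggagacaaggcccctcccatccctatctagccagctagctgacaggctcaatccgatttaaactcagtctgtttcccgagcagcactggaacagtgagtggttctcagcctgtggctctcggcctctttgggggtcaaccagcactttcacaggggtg

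The Armc9 peak, 1422 bp into a cilium gene, read 6.62, 3.54 and 4.92 for H3K18La and 38.3 and 50.7 for H3K27Ac (log2 difference -2.93 ± 0.34, adjusted p = 0.00229). The Rabepk peak, 2079 bp upstream of a Rab9 effector gene, read 7.71, 2.75 and 7.64 against 49.1 and 43.0. The Mtf1 peak, in an intron of the metal-responsive transcription factor, read 9.18, 11.05 and 5.97 against 60.3 and 68.7. These 3 peaks reached the minimum through H3K27Ac alone. The windows held 4, 25 and 5 CpG. Among all non-promoter peaks the sequence contrast was weaker, with a GC box in 11.2% of those higher in H3K27Ac, 5.37% of those higher in H3K18La, 6.55% of those tested and 5.54% of all. The homeodomain letters were in 18.2%, 13.5%, 14.4% and 12.3%. Windows that were at least 50% soft-masked repeat made up 7.70% of non-promoter peaks higher in H3K18La and 4.65% of those higher in H3K27Ac, and 6.495% of those tested and 8.60% of all, so the H3K18La share lay on opposite sides of these 2 baselines for the homeodomain letters and for repeats.

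Among loci that reached the minimum, most of those with 1 peak were higher in H3K27Ac and most of those with at least 20 peaks were higher in H3K18La, and a locus could reach the minimum through 1 mark alone. Of 13187 loci with a mean of at least 10 in-peak RPM, 3962 were higher in H3K18La (30.0%) and 5704 were higher in H3K27Ac (43.3%). The median log2 difference of these loci was -0.31, and with no minimum it was 0.12 over 25225 loci (4882 higher in H3K18La and 6408 in H3K27Ac), so its sign rests on the minimum. Loci with 1 peak had a median of -1.74, with 2225 of 2887 higher in H3K27Ac, and loci with at least 20 peaks had a median of 0.70, with 527 of 802 higher in H3K18La. Loci with a promoter peak were higher in H3K27Ac in 5458 of 10256 cases and in H3K18La in 2118. Loci without one were higher in H3K18La in 1844 of 2931 cases and in H3K27Ac in 246. With promoter peaks left out of the sum, 8151 loci could be tested, of which 3867 were higher in H3K18La (47.4%) and 1463 in H3K27Ac (17.9%). Among 4186 genes with both parts tested, 168 had a promoter called higher in H3K27Ac and other peaks called higher in H3K18La, and 1 had the reverse. Most of these genes showed neither pattern. With the deposited RPKM values the median over loci was -1.18 and the split was 1027 against 8190, and with centring on the median peak it was 0.10 and 5153 against 4274. For gene groups the relative median, which is the list's median minus that of the 13187 loci tested, is therefore given as well, and counts are to be read against the 30.0% and 43.3% of all loci.

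The 10 loci named for the largest H3K27Ac excess had H3K18La means of 3.38 to 6.66 in-peak RPM and H3K27Ac means of 43.8 to 83.4. They reached the minimum of 20 through H3K27Ac alone, so their direction was set by the choice and their values are a description. Chd8, a chromatin remodeller, read 1.45, 5.45 and 3.24 in-peak RPM for H3K18La and 51.0 and 54.6 for H3K27Ac (log2 difference -3.73 ± 0.44, adjusted p = 1.02e-04). Ptdss1, which makes phosphatidylserine, read 7.27, 3.89 and 5.41 against 90.7 and 76.1 (-3.72 ± 0.33). Cdipt, the phosphatidylinositol synthase, read 11.6, 5.45 and 2.16 against 58.8 and 59.9 (-3.25 ± 0.49). The other loci of the 10 were Pagr1a, Adprh, Mif4gd, Adam17, Taok2, Nutf2 and Bet1l, at -3.16 to -3.64. Adprh and Adam17 each had 0 reads in 1 H3K18La library.

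Loci with the largest H3K18La excess included developmental transcription factors with most of their peaks outside promoters. Maf, a bZIP factor (11 peaks, chr8:115687232-115832284), read 80.0, 80.9 and 85.4 for H3K18La and 9.61 and 7.87 for H3K27Ac (log2 difference 3.099 ± 0.23, adjusted p = 1.53e-05). Pou4f3, a POU factor of retinal ganglion and hair cells, read 23.3, 42.8 and 53.0 against 3.00 and 6.92 (2.78 ± 0.42). En2 read 93.1, 123 and 122 against 14.4 and 18.8 (2.69 ± 0.22). Mir466j, AC114824.1, Bpifb6, Mir365-2, Foxo6os, Ttc29 and Atp10b followed, at 2.35 to 2.49. The choice of loci without overlap fixed that the marks lie apart here, and all of the 10 but AC114824.1, Bpifb6 and Mir365-2 reached the minimum of 20 through H3K18La alone. The Mir names stand for all peaks nearest to those genes, not for the mature miRNAs.

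**Figure D3:**
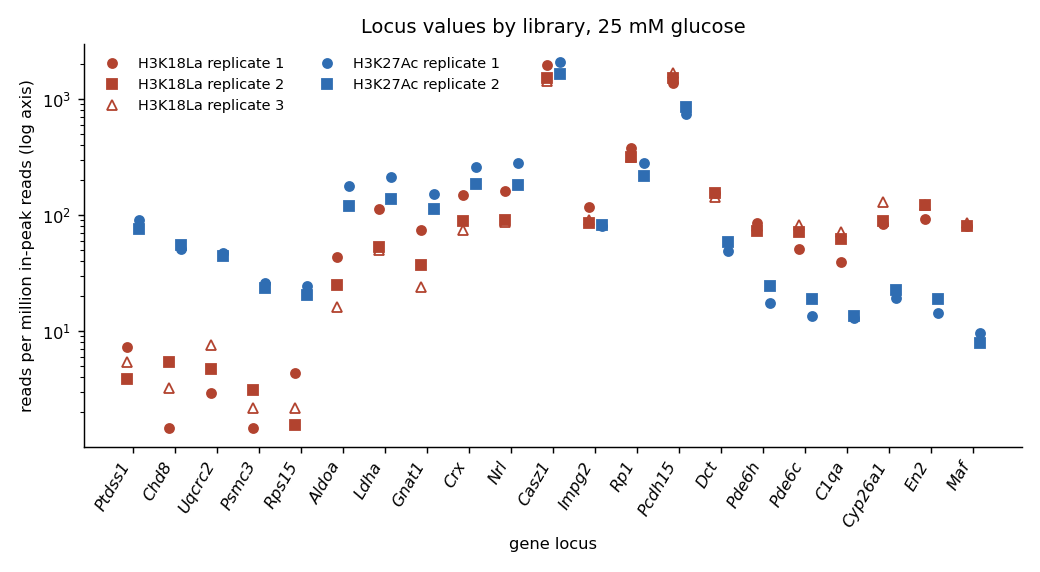
In-peak RPM (vertical axis, log scale) at 21 gene loci for each library at 25 mM glucose, H3K18La in red and H3K27Ac in blue, 1 symbol per replicate. From Ptdss1 to Nrl both H3K27Ac libraries lie above every H3K18La library, at Casz1 the marks overlap, and from Rp1 to Maf every H3K18La library lies above both H3K27Ac libraries.

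Photoreceptor genes split between rods and cones. Of 21 rod phototransduction loci tested, 19 were higher in H3K27Ac and 0 in H3K18La, with a median log2 difference of -0.96 and a relative median of -0.65 (-1.04 once a GC trend was removed). Rod promoters did not stand below promoters in general, with 11 of 21 higher in H3K27Ac, where 57.3% of the strongest promoter peaks of all genes were. Their median was -0.93 against -1.31 for the strongest promoter peaks of all genes. Outside promoters, 14 of 16 rod loci were higher in H3K27Ac, where 17.9% of all 8151 loci tested with promoter peaks left out of the sum were. The rod median was -0.99 against 0.53 for those 8151 loci. Gnat1, rod transducin, read 74.2, 37.4 and 23.8 against 151 and 113 (-1.67 ± 0.37, adjusted p = 0.00241). Pde6g, a subunit of the rod phosphodiesterase, read 103, 52.1 and 55.2 against 211 and 168 (-1.48 ± 0.27). The rod list took 0.209% to 0.325% of H3K18La reads and 0.444% and 0.511% of H3K27Ac reads. Gngt1, the rod transducin gamma subunit, read 52.4, 82.5 and 57.3 against 82.3 and 90.2 and overlapped (adjusted p = 0.0876).

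Cone phototransduction loci lay on the other side of the background. Of 11 tested, 6 were higher in H3K18La and 1 in H3K27Ac, with a median of 0.74 and a relative median of 1.05. Opn1mw, 1 of the 6, and Arr3, which did not pass, reached the minimum through H3K18La alone. With the deposited RPKM values the median itself was -0.16, and with a GC trend removed the relative median was 0.49. Pde6c, the cone phosphodiesterase, read 50.9, 70.8 and 82.2 for H3K18La and 13.6 and 18.8 for H3K27Ac (1.99 ± 0.27, adjusted p = 1.77e-04). Pde6h, its inhibitory subunit, read 85.8, 73.1 and 80.0 against 17.4 and 24.3 (1.90 ± 0.22). Gnb3, the cone transducin beta subunit, read 137, 94.2 and 70.3 against 139 and 73.2, with no difference beyond the spread (adjusted p = 0.863). The single cone locus that was higher in H3K27Ac was Grk1, a photoreceptor receptor kinase that the rod list also holds, at -0.39 ± 0.14, which turned to 0.01 with centring on the median peak. All cone loci together took 0.0613% to 0.0679% of H3K18La reads and 0.0532% and 0.0452% of H3K27Ac reads.

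Of 16 photoreceptor transcription factor loci, 3 were higher in H3K18La and 9 in H3K27Ac, with a relative median of -0.27 (-0.43 once a GC trend was removed). Crx, the homeodomain factor of photoreceptors, read 150, 88.7 and 74.6 against 261 and 185 (-1.13 ± 0.27, adjusted p = 0.00321). Nrl, the factor that specifies rods, read 160, 90.3 and 87.6 against 277 and 182 (-1.05 ± 0.26). Samd11, a photoreceptor repressor, had the lowest difference at -2.20 ± 0.40, followed by Mef2d at -1.33 ± 0.27. The nuclear receptors Rxrg and Thrb, both of the cone lineage, had the highest. Rxrg read 37.8, 45.9 and 48.7 against 17.2 and 20.3 (1.19 ± 0.24), and Thrb, with 95 peaks, read 1279, 1441 and 1615 against 732 and 933 (0.80 ± 0.12). At Thrb the strongest promoter peak had a log2 difference of -0.50 (adjusted p = 0.0859) and the other peaks had 0.95 (adjusted p = 3.94e-05). The Thrb difference turned to -0.14 with the deposited RPKM values and to -0.21 once a GC trend was removed.

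Outer segment and cilium genes were higher in H3K27Ac at 20 of 25 loci and in H3K18La at 2, with a relative median of -0.57 (-1.10 once a GC trend was removed). Rpgr, 1 of the 20, reached the minimum through H3K27Ac alone. Reep6, needed for rod protein trafficking, read 82.9, 24.9 and 22.7 against 210 and 136 (-2.19 ± 0.45), and Bbs1, of the ciliary BBSome, had the lowest difference at -2.33 ± 0.31. The 2 exceptions were Pcdh15, a protocadherin with 114 peaks, at 0.94 ± 0.10, and Rp1, a microtubule protein of the outer segment axoneme, at 0.44 ± 0.15. Both turned below 0 once a GC trend was removed, to -0.11 and -0.60. Ribbon synapse genes, with a relative median of -0.65, were higher in H3K27Ac at 12 of 19 loci, among them Syp at -1.70 ± 0.31 and the calcium channel gene Cacna1f at -1.62 ± 0.25, and 1 locus was higher in H3K18La, the active zone gene Pclo at 0.37 ± 0.14, which turned to -0.56 with the deposited RPKM values. At Pclo the strongest promoter peak was lower in H3K18La (-1.65, adjusted p = 0.0166) and the other peaks were higher (0.82, adjusted p = 5.80e-04).

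Several further photoreceptor genes fixed by name were examined. Neurod1, a bHLH factor, read 129, 69.3 and 63.8 against 229 and 142 (-1.11 ± 0.30, adjusted p = 0.00618). Mpp4, Arl6, Gucy2f, Vamp2 and Crxos were also higher in H3K27Ac, at log2 differences of -0.76 to -1.36, although the libraries of the 2 marks overlapped at Crxos. Rorb, an orphan receptor, was higher in H3K27Ac by a smaller margin, at -0.40 ± 0.13 (adjusted p = 0.0186), and turned to 0.01 with centring on the median peak. Casz1, a zinc finger factor, read 1954, 1497 and 1414 against 2062 and 1650 and did not pass (adjusted p = 0.191). Impg1 and Impg2 did not pass either, at -0.28 and 0.26. At Impg2, a gene of the interphotoreceptor matrix, the promoter peak gave -0.65 (adjusted p = 0.307) and the other peaks gave 0.66 (adjusted p = 0.0142).

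Genes of energy metabolism and protein turnover were read as 4 lists. In the list of glycolysis and lactate genes, 23 of 28 loci were higher in H3K27Ac and 0 in H3K18La, with a median of -1.36 and a relative median of -1.05 (-0.50 once a GC trend was removed). Ldha, lactate dehydrogenase A, read 112, 52.9 and 49.8 against 212 and 136 (-1.34 ± 0.32, adjusted p = 0.00361). Aldoa, the glycolytic aldolase, is annotated under 2 gene identifiers. Its main locus (chr7:126797175-126800102) read 43.6, 24.9 and 16.2 against 178 and 120 (-2.44 ± 0.35, adjusted p = 2.44e-04). Pgam1, phosphoglycerate mutase, was at -2.41 ± 0.60. Pgam1, Pgk1 and the second Aldoa locus reached the minimum through H3K27Ac alone. The lactate transporter gene Slc16a7 and the pyruvate dehydrogenase kinase gene Pdk1 had the highest differences, 0.24 and 0.39, and did not pass. Of the respiratory chain, cytosolic ribosomal protein and proteasome lists, 25, 25 and 26 genes had a peak and 19, 13 and 17 loci reached the minimum. All of those that did were higher in H3K27Ac, with relative medians of -1.67 (-0.89 once a GC trend was removed), -1.86 and -1.55. Loci such as Uqcrc2, Psmc3 and Rps15 reached the minimum through H3K27Ac alone, so the direction of the loci tested was in part set by it and these counts support nothing. Uqcrc2, of complex III, read 2.91, 4.67 and 7.57 against 46.8 and 44.1. Psmc3, a proteasome ATPase, read 1.45, 3.11 and 2.16 against 25.8 and 23.6. Rps15, a small ribosomal subunit protein, read 4.36, 1.56 and 2.16 against 24.2 and 20.3. Each of these 3 loci had 1 peak, at its promoter, and 57.3% of the strongest promoter peaks over all genes were higher in H3K27Ac.

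Lists of regulatory genes were also examined. Circadian clock genes were higher in H3K27Ac at 12 of 17 loci, with a relative median of -0.74 that was -0.18 once a GC trend was removed, and their promoter median of -1.30 lay at that of all genes. Histone acyltransferase and deacylase genes were higher in H3K27Ac at 14 of 20 loci (relative median -0.62). Ciart and Dbp, both clock outputs, were lowest among the former, and Dbp read 37.8, 31.1 and 24.9 against 145 and 137 (-2.16 ± 0.22). Npas2 was the clock gene higher in H3K18La, at 0.61 ± 0.22, and turned to -0.31 with the deposited RPKM values. Ep300, which encodes the acetyltransferase p300, read 13.1, 7.78 and 6.49 against 56.2 and 30.1 (-2.11 ± 0.38), and Kat5 was at -2.23 ± 0.52. Ep300, Kat5 and the clock gene Ciart reached the minimum through H3K27Ac alone, so their direction was set by it. No acyltransferase or deacylase locus was higher in H3K18La, and the highest, Hdac7, was at 0.40 (adjusted p = 0.0551). SP and KLF factor genes gave 3 loci higher in H3K18La and 9 higher in H3K27Ac of 15, with a median 0.45 below that of all loci that turned to 0.10 above it once a GC trend was removed. Klf16 was lowest at -2.13 ± 0.37, and Klf2 and Klf12 were higher in H3K18La at 0.95 ± 0.29 and 0.69 ± 0.13, of which Klf12 turned to -0.25 with the deposited RPKM values. Immediate early genes gave 3 and 8 of 17, the latter near the share of all loci (43.3%), with a median 0.35 below that of all loci that turned to 0.22 above it under the same correction. Ier2 was at -2.26 ± 0.39, Jun at -1.41 ± 0.28 and Ier5 at 1.10 ± 0.22. Cell cycle genes gave 1 and 3 of 5 loci (relative median -0.96, or -0.12 once a GC trend was removed), from Aurka at -2.52 ± 0.56 to Cdk1 at 0.90 ± 0.36. Aurka and Pcna reached the minimum through H3K27Ac alone, so their direction was set by it. Of 24 Hox genes 3 had a peak, and none reached the minimum.

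Synaptic adhesion genes, which span long introns, were higher in H3K18La at 15 of 28 loci and in H3K27Ac at 3, with a median of 0.69. Among all loci tested, 56.0% of those with 10 to 19 peaks and 65.7% of those with at least 20 were higher in H3K18La. Their medians were 0.68 and 0.70, so the excess was not particular to this list. The relative median of the list was 0.999, or 0.22 once a GC trend was removed, and the median itself was -0.22 with the deposited RPKM values. Ptprt, a receptor phosphatase with 38 peaks, read 64.0, 92.6 and 91.9 against 20.8 and 26.95 (1.74 ± 0.24, adjusted p = 1.92e-04), and Cntnap5a was at 1.64 ± 0.26. The neuroligins Nlgn3 and Nlgn2, each with 2 or 3 peaks, were at -1.20 ± 0.28 and -1.19 ± 0.28, of which Nlgn2 turned to 0.14 with the replicate block and a GC trend removed. The 16 strongest promoter peaks tested in this list gave 3 higher in H3K27Ac and 0 in H3K18La, with a median of -0.86 against -1.31 for the strongest promoter peaks of all genes, of which 57.3% were higher in H3K27Ac.

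**Figure D4:**
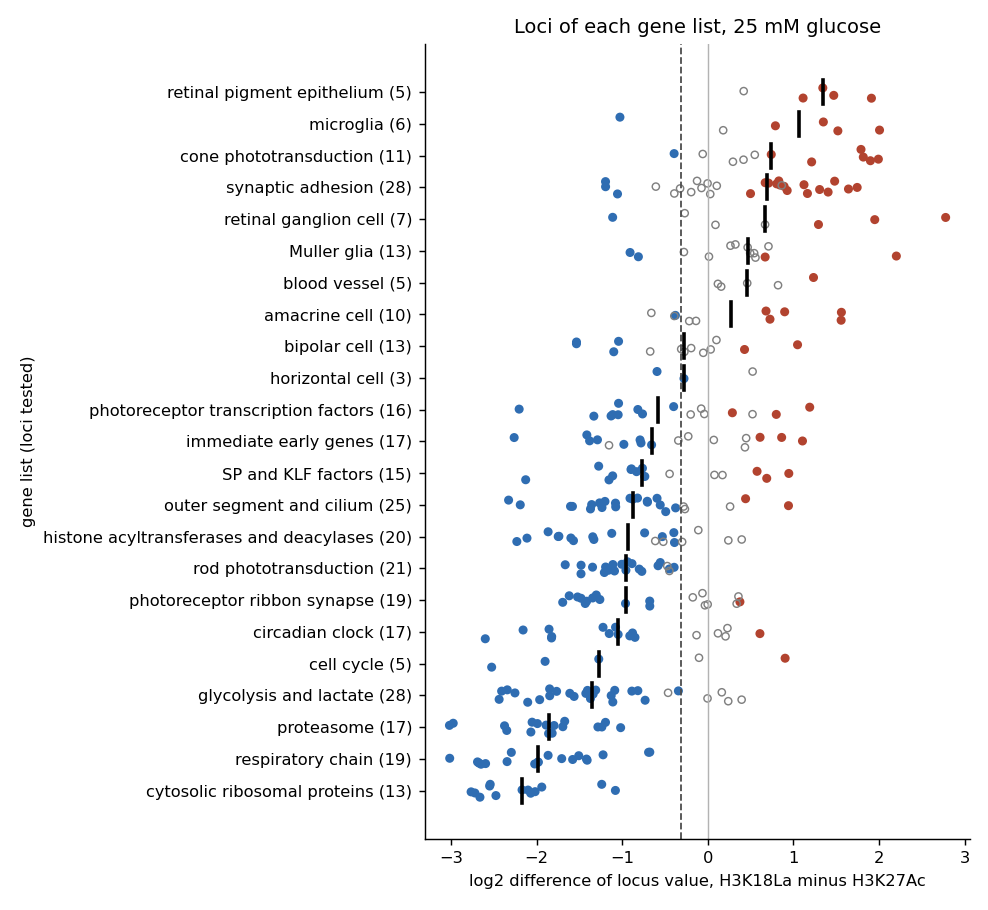
Log2 difference of each tested locus, H3K18La minus H3K27Ac (horizontal axis), for 23 gene lists (vertical axis, number of loci tested in brackets) at 25 mM glucose; filled red points are higher in H3K18La and filled blue points higher in H3K27Ac at an adjusted p under 0.05, open points did not pass, black bars are list medians and the dashed line is the median of the loci tested, -0.31. Medians run from -2.17 for ribosomal protein genes to 1.342 for pigment epithelium markers; with the deposited RPKM values only the medians of microglia and pigment epithelium markers stay above 0.

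Markers of the other retinal cell types were read as well, although signal at a marker locus does not show which cells it came from. The rod markers above were read in every library, and fewer loci of inner retinal neurons reached the minimum. Amacrine loci gave 5 higher in H3K18La and 1 in H3K27Ac of 10 (relative median 0.58). The highest were the EBF factors Ebf3 (1071, 1140 and 1138 against 396 and 361) and Ebf1, at 1.56 each. Slc6a9 was the locus higher in H3K27Ac, at -0.38 ± 0.12. Pax6 was lowest at -0.66 ± 0.40, reached the minimum through H3K27Ac alone and did not pass. Ganglion cell loci gave 3 and 1 of 7 (relative median 0.98), with Pou4f3 and Gap43 highest and Tubb3 lowest at -1.11 ± 0.25. Bipolar loci gave 2 and 4 of 13 (relative median 0.035, or -0.23 once a GC trend was removed), from Grm6 at -1.53 to Irx6 at 1.05. Irx6 and the ganglion cell gene Pou4f3 reached the minimum through H3K18La alone. Horizontal cell loci gave 0 and 2 of 3 (relative median 0.031, or -0.16 once a GC trend was removed). Müller glia loci gave 2 and 2 of 13 (relative median 0.77), with the retinoic acid hydroxylase gene Cyp26a1 highest (84.4, 88.7 and 130 against 19.2 and 22.4, log2 difference 2.20 ± 0.24) and the glutamine synthetase gene Glul lowest at -0.91 ± 0.22.

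Of the markers tested, those of pigment epithelium and microglia were mostly higher in H3K18La, with relative medians of 1.65 (0.76 once a GC trend was removed) and 1.38, and blood vessel markers mostly did not pass. Pigment epithelium loci were higher in H3K18La at 4 of 5 tested and in H3K27Ac at 0, although the dissection had removed that layer. Dct, a melanin enzyme gene, read 156, 153 and 142 against 49.2 and 58.2 (1.47 ± 0.17, adjusted p = 7.93e-05), and Tyrp1, another, was at 1.91 ± 0.36. Ttr, 1 of the 4, reached the minimum through H3K18La alone. Rdh5, a retinol dehydrogenase gene under the minimum, lay the other way, at 1.45, 2.33 and 2.16 against 6.80 and 10.3. The 10 of 12 list members with a peak took 0.0429% to 0.0483% of H3K18La reads and 0.0189% and 0.0206% of H3K27Ac reads, and Rpe65 had 0 reads in all 5 libraries. Microglia loci gave 4 and 1 of 6, led by the complement gene C1qa (39.3, 62.3 and 71.4 against 13.0 and 13.4, log2 difference 2.00 ± 0.29). The 10 of 14 members with a peak took 0.0211% to 0.0295% and 0.0117% and 0.0142%, and the defining markers Tmem119 and Aif1 had no peak. Blood vessel loci gave 1 and 0 of 5, with Des at 1.22 ± 0.30 and Pecam1 at 0.12. The part of these cell types in the differences between marks was not tested.

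The libraries at 5 mM glucose, 3 of H3K18La and 2 of H3K27Ac, gave a second reading of the same contrast. Promoters took 19.7% ± 0.879 (SD, n = 3) of H3K18La reads and 32.4% ± 0.420 (SD, n = 2) of H3K27Ac reads there, so the gap between marks was 12.7 percentage points against 18.2 at 25 mM. If the denominators are mapped reads, a uniform background would make up 27.65% to 28.2% of H3K18La in-peak reads at 5 mM and 7.02% to 8.33% at 25 mM. For H3K27Ac it would be 14.1% and 8.20% against 1.66% and 2.91%. The 2 gaps are therefore not directly comparable, and the part of background in them was not tested. Over the 13187 loci the log2 differences at the 2 glucose levels had a Pearson correlation of 0.876 and a Spearman correlation of 0.896 across genes, which are not independent replicates. Of 5704 loci higher in H3K27Ac at 25 mM, 99.0% had the same sign at 5 mM, where 58.9% of all tested loci did, and 45.04% also passed the threshold in that direction. Of 3962 loci higher in H3K18La, 96.3% had the same sign, where 41.1% of all tested loci did, and 54.5% also passed. None passed in the opposite direction. Reads in peaks at 5 mM were 11.8% to 12.01% of the H3K18La denominators, with a median of 1 to 4 H3K18La reads per peak, and 0 of 51415 peaks passed there (10971 at an unadjusted p under 0.05). The interaction of mark and glucose passed at 0 of 14164 loci (899 at an unadjusted p under 0.05) and at 0 of 61784 peaks (2093), in limma fits over all 10 libraries. A p that misses the threshold does not show that the differences were equal.

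**Figure D5:**
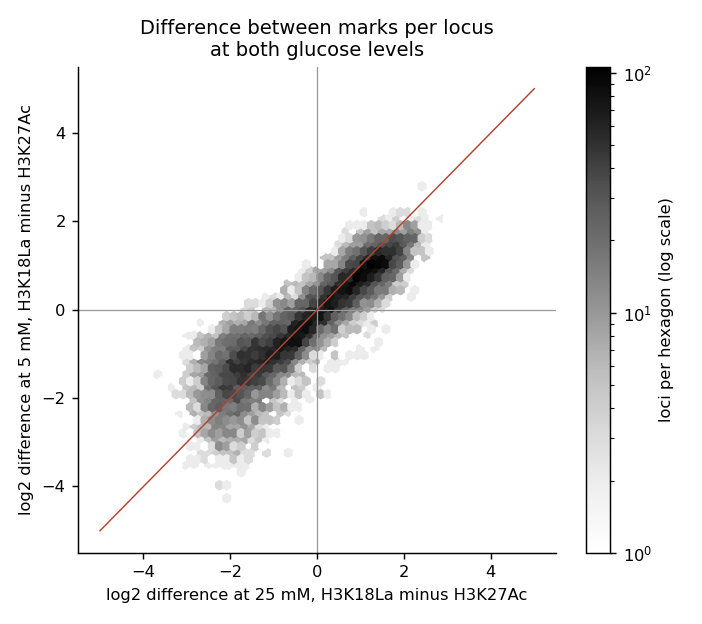
Log2 difference between marks, H3K18La minus H3K27Ac, for 13187 loci at 25 mM (horizontal axis) and at 5 mM glucose (vertical axis), with darker hexagons holding more loci (log scale) and the red line marking equal differences. Most loci lie along the line, with a Pearson correlation of 0.876 across genes.

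Single genes illustrate the similarity of the readings. The Ldha difference was -1.64 at 5 mM (adjusted p = 0.00583) and that of Crx was -1.17 (adjusted p = 0.0237). Pde6c was at 1.51 (adjusted p = 0.00283), Maf at 2.32 (adjusted p = 0.00106) and Cyp26a1 at 2.59 (adjusted p = 1.56e-04). Each of these lay on the same side at both glucose levels. Grm6, the bipolar glutamate receptor gene, was at -1.53 at 25 mM and at 0.21 at 5 mM, where it did not pass (adjusted p = 0.669).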

How the data were processed

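CUT&Tag libraries of retinal explants were analysed from 1 table of peaks. The authors aligned reads to GRCm38 with nf-core/cutandrun, called peaks with MACS, annotated them with ChIPseeker 1.34.1 and counted reads with csaw. The values deposited are RPKM, reads per kb of peak and per 1000000 of a library total that may include a normalization factor, which touches the deposited-RPKM and background-subtracted alternatives. A second deposited table, of fold changes and p-values for glucose within H3K18La from edgeR 3.40.2, holds the authors' own comparison and was not used.

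All RPKM values were whole multiples of 1 read (100% within 0.02 reads), so reads per peak were recovered. All columns of the table were mapped to samples (0 left out). RPKM was divided by each library's fraction of reads in peaks, and reads were summed over peaks of a gene for loci. Differences between marks were tested with limma 3.58.1 (lmFit, eBayes with an intensity trend) in R 4.3.3 on log2(value + 1), with Benjamini-Hochberg adjustment over all features and a threshold of 0.05. Peaks needed a mean of 5 and loci a mean of 10 over the 5 libraries. For shares and contrasts, an exact permutation test over the 5 libraries was used. The fits were tested on simulated data. Python 3.11.15, numpy 2.4.6, pandas 2.3.3 and scipy 1.17.1 were used.

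Named loci were those past the threshold without overlap and with a mean of at least 20 (10 largest in each direction). The 2 highest and 2 lowest of each list and 18 genes fixed by name were added. Symbols made of Gm and a number, symbols ending in Rik and Ensembl identifiers were left out of the 10 largest. Values of 3 named genes are not reported here. Promoter peaks needed a mean of 10 (6 largest in each direction), and non-promoter peaks shown as sequence a mean of 20 (3 largest). The members and the 24 gene lists were chosen with earlier results of these data known. Coordinates are GRCm38, and 99.7% of 32058 annotated transcripts had the same position in GENCODE M21. Fragments carried no molecular identifiers, so intervals cover counting error only, and a count of 0 allows up to 3 reads. Alternatives were other pseudocounts, minimums, scalings, moderation, voom on recovered reads, thresholds, thinning, autosomes alone, GC correction, replicate block, promoter definitions and leaving out each library. Subtraction of a uniform background was added after seeing the data.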

Additional observations from a re-analysis of the deposited data

Results flagged for a closer look

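At 1 named locus the difference between marks lay in opposite directions at the 2 glucose levels, with no overlap between the libraries of the 2 marks at either level. Nrxn2, which encodes the presynaptic adhesion protein neurexin 2, read 34.9, 32.7 and 30.3 in-peak RPM for H3K18La and 42.2 and 43.9 for H3K27Ac at 25 mM, a log2 difference of -0.39 (limma adjusted p = 0.129). At 5 mM it read 86.9, 76.2 and 106 against 56.9 and 66.4, a log2 difference of 0.52 (limma adjusted p = 0.0961). Neither difference passed the threshold. The limma interaction of mark and glucose did not pass at this or any other locus.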

How the results depend on the processing

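Against 21847 peaks called in all, a threshold of 0.01 left 10295 and thinning to equal reads in peaks left 11888. Leaving out 1 library gave 4436 to 27242 peaks, the lowest without H3K27Ac replicate 1 (10910 without H3K27Ac replicate 2), and 6668 to 10397 loci against 9666 with all libraries. With 1 H3K27Ac library left, that library is assumed to vary like the others. Loci without their promoter peaks gave 5330 calls. The difference in promoter share of in-peak reads ranged from -15.04 to -21.44 percentage points over its alternatives, the promoter contrast from -1.09 to -1.68, and the relation of signal to GC content from -0.34 to -0.46. The interaction with glucose gave 0 calls under each of its 6 alternatives.

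Named loci that changed direction gave 27 such values over all alternatives. With the deposited RPKM values they were Thrb (-0.14), Rp1 (-0.50), the Pcdh15 locus (-0.00226), Pclo (-0.56), Prkca (-0.51), the Egr3 locus (-0.00454), Klf12 (-0.25) and Npas2 (-0.31). With centring on the median peak they were Grk1 (0.012), Ndrg1 (0.13) and Rorb (0.0061). With a GC trend removed they were Thrb (-0.21), Rp1 (-0.60), Pcdh15 (-0.11), Pclo (-0.55), Prkca (-0.30), Hes5 (0.45), Psmd8 (0.073) and Klf12 (-0.35). With the replicate block and the GC trend removed they were Thrb (-0.23), Rp1 (-0.49), Pcdh15 (-0.11), Pclo (-0.47), Prkca (-0.31), Hes5 (0.59), Klf12 (-0.37) and Nlgn2 (0.14). The cause was not tested. No named promoter changed direction.

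With the replicate number as a block, 24168 peaks and 10351 loci were called. The deviations of same-numbered libraries correlated at 0.26 and 0.096 over peaks and at 0.46 and 0.19 over loci, in only 2 pairs, so the libraries share a number and no known origin. Depth limits single peaks, since the median peak held 3 to 5 H3K18La reads.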
